A study of Mus musculus with 8 samples.

Results

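The early response of mouse embryonic fibroblasts to retinoic acid (RA) was measured by comparing 3 libraries treated with RA for 12 h with 3 untreated libraries. These are 6 of the 8 libraries of the series, chosen by their labels, and the other 2 were treated with RA for 72 h. All cells in the comparison, controls included, are labelled TAF4-/- on the C57BL/6 background. By this label both groups lack TAF4, one of the subunits of TFIID, the factor that recognises core promoters. The untreated group has treatment none and a time of 12 h, and the treated group has treatment retinoic acid and a time of 12 h. The cells are a single immortalized fibroblast line. The methods of the study describe its TAF4-null line as made by Cre recombinase from cells with a floxed and a deleted Taf4 allele. Neither the labels nor the methods give the replicates as separate cultures. The p-values then measure only the spread between these libraries. Of the 22200 genes in the table, 12679 had a mean of at least 10 normalised reads over the 6 libraries and were tested.

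RA enters cells, is carried by small binding proteins and acts in the nucleus on the RA receptors RARA, RARB and RARG. These bind DNA as heterodimers with the RXR receptors, at pairs of hexamers in direct repeat named DR1, DR2 or DR5 by the number of bases between them. The ligand turns the heterodimer from a repressor into an activator of nearby genes. Cells also remove RA, by oxidation through the CYP26 enzymes, and DHRS3 returns retinaldehyde to retinol and so limits its synthesis.

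The libraries were deposited as normalised reads per gene and had been brought to a common distribution: all 8 hold the same sorted values, with a total of 9442019 normalised reads each, so that sequencing depth can no longer be read from them and no counting interval is given. Between replicates, Spearman's rho across genes was 0.981 to 0.991 in the untreated group and 0.990 to 0.994 in the RA group. One axis held 52.9% of the variance within groups and set untreated replicates 1 and 2 and RA replicate 3 apart from untreated replicate 3 and RA replicates 1 and 2. All 179 genes called below kept their direction within both of these sets. For the 178 whose group values did not overlap it could not be otherwise, so this is no added support. Of the 179, 135 differed at least 2-fold in both sets. The labelled cell type was checked on its markers: 11 of 12 fibroblast markers passed the filter, with a summed level of 238750 to 259410 in the untreated and 240570 to 251170 in the RA libraries. Of the markers of 6 other cell types, 1 of 8 epithelial, 3 of 6 endothelial, 1 of 6 leukocyte, 2 of 5 neural, 1 of 5 skeletal muscle and 1 of 5 adipocyte genes passed it, and the highest sum of such a list in any library was 183, for the adipocyte genes, which summed to 108 to 144 without and 152 to 183 with RA. Taf4a was read at 984 to 1403 in all 6 libraries. The table gives 1 value per gene, and the deleted part was not examined apart, so these values do not bear out the genotype label. The titles also carry a clone name that resembles that of the line with TAF4.

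RA changed few genes at 12 h, and most of these rose. In RNA from bulk cultures, a change in the share of cells that express a gene and a change in its RNA per cell cannot be told apart. Calls needed an adjusted p below 0.05 together with a fold change of 2 or more, both taken on log2(value + 1), a scale that understates the change of low genes. By this rule 179 of 12679 genes were called (1.41%), 138 of them higher in RA (1.09%) and 41 lower (0.323%), while the median change over all genes was -0.02 on the log2 scale. Most changes were modest: 122 of the 179 lay between 2- and 3-fold, 42 between 3- and 5-fold, 9 between 5- and 10-fold and 6 at 10-fold or more, and all 15 genes past 5-fold were higher in RA. The 3 values of each group did not overlap in 178 of the called genes and in 2542 of all genes tested (20.05%). Leaving out untreated replicate 3 raised the number of calls to 330, of which 241 were higher and 89 lower and 170 were among the 179.

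**Figure D1:**
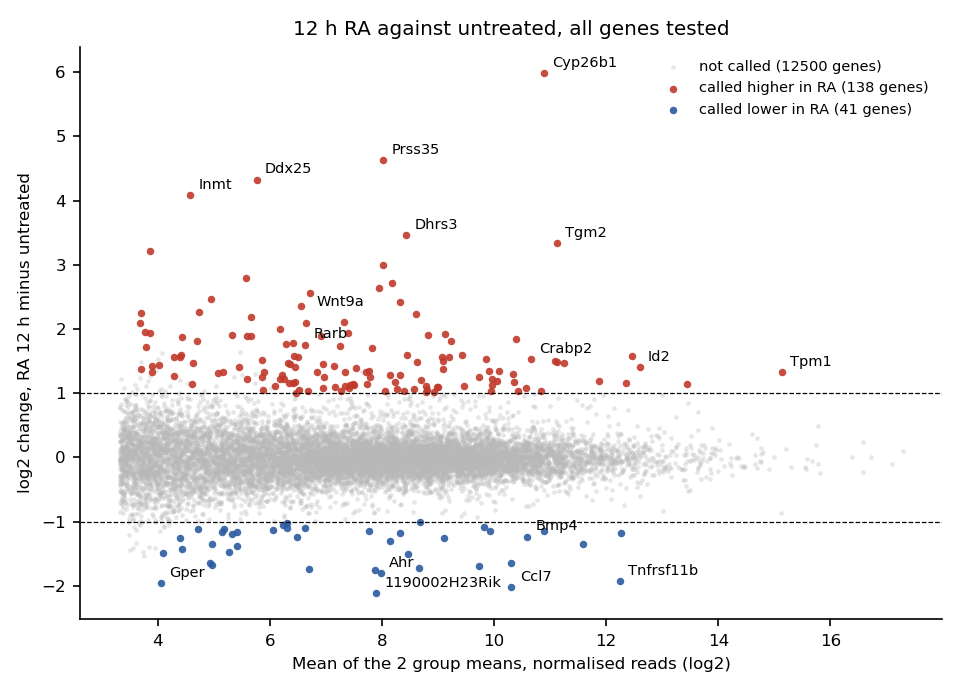
Each point is a gene, with the mean of the group means in normalised reads (log2) on the x axis and the log2 change of RA 12 h minus untreated (3 libraries each) on the y axis. The dashed lines mark a 2-fold change. Red points are the 138 genes called higher and blue points the 41 called lower; Cyp26b1 stands highest at 5.99.

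The sequences of the elements known to bind RAR and RXR are shown first, since they can be read beside the values of the genes that hold them. Promoter windows of 300 bases, from 250 before to 50 after the start of each gene, were searched on both strands for direct repeats of the hexamer RGKTCA (RefSeq windows, build GRCm38.p6). A DR5 was found at the promoter of Rarb, 53 bases before the start, in the window chr14:16575427-16575726 on the minus strand. A DR2 lay 107 bases before the start of Tinagl (Tinagl1 in RefSeq), in the window chr4:130175073-130175372 on the minus strand. A DR5 on the opposite strand began 246 bases before the start of Ppbp, the gene of a chemokine of platelets, in the window chr5:90768268-90768567 on the plus strand, a gene named here after its values were seen. Each window is printed 5′ to 3′ along the gene, with the element in capitals.

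Rarb: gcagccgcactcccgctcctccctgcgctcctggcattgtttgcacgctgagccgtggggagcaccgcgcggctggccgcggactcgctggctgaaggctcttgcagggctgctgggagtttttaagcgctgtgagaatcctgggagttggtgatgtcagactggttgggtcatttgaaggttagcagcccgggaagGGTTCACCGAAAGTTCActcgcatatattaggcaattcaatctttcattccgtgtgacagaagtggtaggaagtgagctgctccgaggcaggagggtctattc

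Tinagl: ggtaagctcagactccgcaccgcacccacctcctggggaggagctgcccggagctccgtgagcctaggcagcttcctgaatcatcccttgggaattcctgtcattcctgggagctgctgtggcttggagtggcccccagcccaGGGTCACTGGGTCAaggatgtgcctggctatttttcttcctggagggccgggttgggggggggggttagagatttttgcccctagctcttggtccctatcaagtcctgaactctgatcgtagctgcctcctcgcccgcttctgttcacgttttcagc

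Ppbp: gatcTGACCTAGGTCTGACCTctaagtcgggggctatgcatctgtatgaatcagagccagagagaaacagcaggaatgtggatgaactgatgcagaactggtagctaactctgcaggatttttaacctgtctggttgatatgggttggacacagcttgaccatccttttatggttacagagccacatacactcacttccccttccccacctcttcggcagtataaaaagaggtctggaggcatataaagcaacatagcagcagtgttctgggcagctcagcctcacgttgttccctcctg

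The table of windows held 97 of the 138 genes called higher (70.3%), 24 of the 41 called lower (58.5%) and 9896 of the 12679 tested (78.1%). A comparison of these shares is void, because fewer than 80% of the genes had a window. As a description, 2 of the 97 genes called higher held a DR5 (2.06%) and 1 a DR2 (1.03%), against 5 (0.0505%) and 12 (0.121%) of all 9896, and no DR1 was found in genes called higher. In windows of the same length at the 5′ end of the gene records on mm9, the build of the files, which covered 137 of the 138 genes, 1 gene called higher held a DR2 (0.73%) and 1 a DR5 (0.73%), against 0.104% and 0.032% of all genes, and of the 41 genes called lower 1 also held a DR2 (2.44%) and 1 a DR5 (2.44%). The record of Rarb on mm9 starts at another 5′ end, where a window of this length held no element.

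Within 10 kb to each side of the 5′ end on mm9, 15 of 137 genes called higher held a DR5 (10.9%) and 31 a DR2 (22.6%), against 7.77% and 25.5% of all genes tested. Of the 41 genes called lower, 4 held a DR5 (9.76%) and 12 a DR2 (29.3%). Among the genes described below, Dhrs3 held a DR5 at chr4:144488278-144488294, 5548 bases after its 5′ end, Crabp2 a DR2 at chr3:87751447-87751460, 1141 bases before it, and Wnt9a a DR2 at chr11:59124817-59124830, 4387 bases after it. They are printed with 20 bases to each side and the element in capitals, along the gene. The printed elements are examples chosen by no stated rule. Other genes described below and called higher also held elements in this window, among them Prss35 (DR1) and Fbln7, Cdkn1a, Tnfaip3 and Il1rn (DR2). The DR2 of Fbln7 and that of Il1rn lie between nearly the same flanking bases, as does a DR2 at Bhlhb2. No DR1, DR2 or DR5 was found in this window at Cyp26b1, the gene with the largest rise, or at Ddx25, Inmt, Tgm2, Gdpd5 and Npr1. Wnt9a held another DR2 before its 5′ end, and Dhrs3 a DR1. A match of letters is not evidence of binding.

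Dhrs3: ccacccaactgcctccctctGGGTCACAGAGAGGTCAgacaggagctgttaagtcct

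Crabp2: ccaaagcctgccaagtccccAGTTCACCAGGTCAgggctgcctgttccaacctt

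Wnt9a: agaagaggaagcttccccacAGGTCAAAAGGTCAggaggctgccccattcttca

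Of the genes that make, carry or degrade RA, 3 of the 14 tested were called higher and none lower (21.4%, against 1.41% of all genes). The median log2 change was -0.04 over the list and -0.02 over all genes. All 21 lists were chosen with earlier results of these data known, and 57 of their 745 distinct tested genes were called. A share of a list above 1.41% follows in part from that choice and is a description only. Cyp26b1, the enzyme that oxidises RA to inactive products, showed the largest rise of all genes tested. Its normalised reads were 63.6, 73.0 and 40.4 in the untreated libraries and 3252, 3367 and 4620 with RA. The lowest RA value was thus far above the highest untreated one, and the fold change was 63.5 (log2 change 5.99 ± 0.20 SE, limma adjusted p = 3.32e-09). The gene lies at chr6:84521938-84543740 on mm9. After 72 h of RA it was read at 4476 and 6306. Its relatives Cyp26a1 and Cyp26c1 did not reach the filter, with no value above 6.75 and 7.62 in the 6 libraries.

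Dhrs3, a short-chain dehydrogenase that reduces retinaldehyde, rose next in this list. It was read at 75.0, 56.0 and 42.8 without RA and at 599, 647 and 653 with it, without overlap, an 11-fold rise (log2 change 3.46 ± 0.18 SE, limma adjusted p = 4.47e-07), and at 1382 and 1409 after 72 h. Crabp2, which carries RA to the nucleus, was read at 834, 869 and 776 without RA and at 2445, 2469 and 2268 with it. The groups were again apart, by 2.90-fold (log2 change 1.53 ± 0.10 SE, limma adjusted p = 1.36e-06), but at 72 h Crabp2 was read lower than at 12 h, at 1229 and 1368.

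No change was called in the other 11 tested genes of the list. The dehydrogenases Rdh10 and Aldh1a2, which make RA from retinol, had log2 changes of -0.09 ± 0.12 and -0.11 ± 0.37 SE, and the latter was barely read, at 8.38 to 20 normalised reads. A further 17 members, among them the binding proteins Rbp4 and Crabp1, the membrane transporter Stra6, the storage enzyme Lrat and Fabp5, were below the filter, and none of them exceeded 13.8 in any of the 6 libraries.

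Among 24 receptors and coregulators, Rarb alone was called (4.17%, against 1.41% of all genes), with a list median of 0.03. It was read at 46.6, 31.1 and 58.4 in the untreated and at 124, 175 and 159 in the RA libraries, without overlap, a 3.38-fold rise (log2 change 1.76 ± 0.23 SE, limma adjusted p = 0.000372), and at 242 and 205 after 72 h. This is the receptor whose promoter window, printed above, holds a DR5. The other receptors were not called: Rara was read at 615 to 683 without and 581 to 665 with RA (log2 change -0.03 ± 0.11 SE), Rarg at 998 to 1346 and 1361 to 1542 (0.24 ± 0.13 SE) and Rxra at 256 to 401 and 194 to 282 (-0.49 ± 0.18 SE). The values of Rara and Rxra overlapped between the groups, while those of Rarg did not, by a margin of less than the spread within either group. The orphan receptor Nr2f1 had an adjusted p below 0.05 with less than a 2-fold change, at 284 to 403 without and 496 to 679 with RA (log2 change 0.79 ± 0.15 SE, limma adjusted p = 0.0078). Changes of the corepressor Ncor1 (0.21 ± 0.12 SE) and of the coactivators Ep300 and Crebbp (0.01 ± 0.10 and 0.05 ± 0.13 SE) were not called, and neither was that of Nrip1, a corepressor that RA is known to induce in other cells (0.54 ± 0.18 SE).

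**Figure D2:**
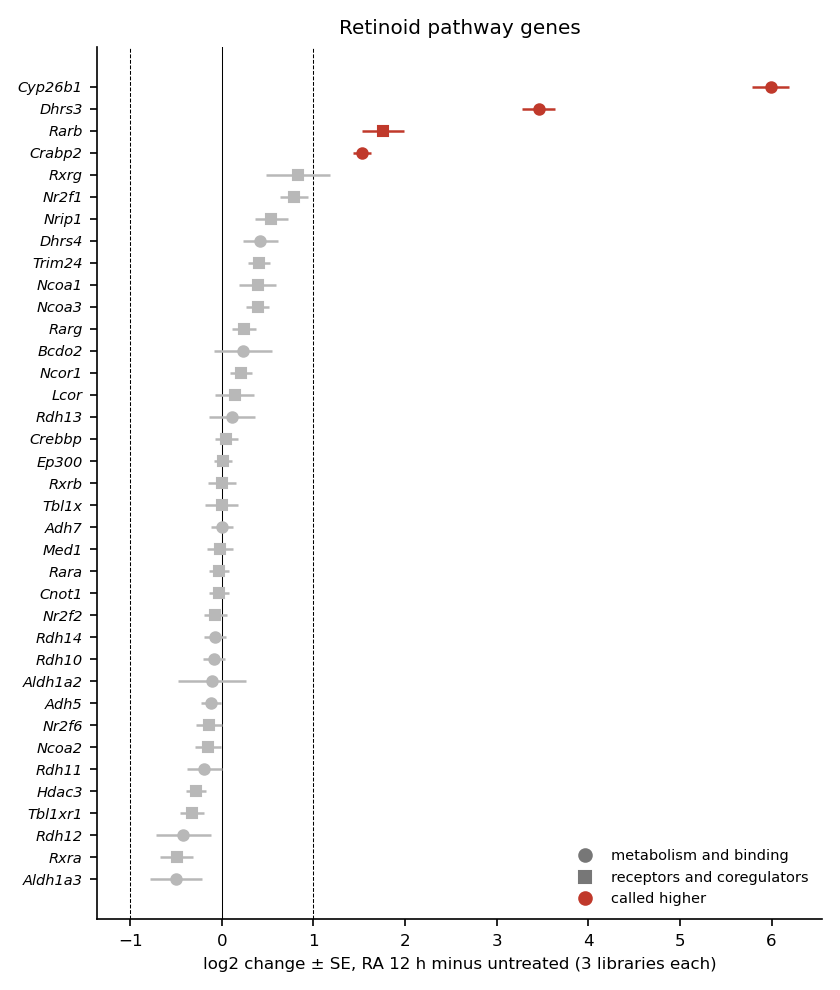
Log2 change of RA 12 h minus untreated (x axis, bars are SE, 3 libraries each) for the 14 tested genes of RA metabolism and binding (circles) and 23 receptors and coregulators (squares), ordered by change. The dashed lines mark 2-fold; Cyp26b1, Dhrs3, Rarb and Crabp2 (red) were called higher and the others (grey) were not called.

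Many developmental regulators known to answer to RA in embryos or stem cells were barely read in these fibroblasts. In this list 27 members, among them Hoxb1, Hoxb4, Cdx1 and Stra8, did not reach the filter. Of the 31 tested 4 were called higher and none lower (12.9%, against 1.41% of all genes, list median 0.06). Tgm2, the tissue transglutaminase that crosslinks proteins, was the gene of this list with the largest rise. It was read at 328, 338 and 572 without RA and at 4048, 4376 and 3705 with it, a 10.1-fold rise with no overlap (log2 change 3.34 ± 0.18 SE, limma adjusted p = 4.61e-07), and at 7256 and 5884 after 72 h. The other 3 were Bhlhb2 (Bhlhe40), a repressor of the circadian clock (log2 change 1.35 ± 0.15 SE), and the transcription factors Sox2 (1.10 ± 0.19 SE) and Irx3 (1.05 ± 0.26 SE). The calls for Sox2 and Irx3 were lost in 4 and 9 of 14 alternatives, both of them without untreated replicate 2 and without RA replicate 1, and that for Irx3 also without untreated replicate 1, RA replicate 2 or RA replicate 3. Tbx2 was below the filter at 2 to 4.88 without and 9.12 to 14.6 with RA and was read at 36.9 and 43.1 after 72 h, values described here after they were seen and not tested. Of 24 other nuclear receptors, Pparg, the regulator of fat cell differentiation, was the only one called (4.17%, against 1.41% of all genes). It was read at 80.0 to 114 without and 218 to 249 with RA (2.52-fold, log2 change 1.34 ± 0.16 SE). Of the adipocyte markers summed above, Fabp4 alone passed the filter, with a log2 change of 0.49 that was not called, and the defining markers Adipoq and Lep had means of 2 and 2.56 normalised reads.

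Several of the largest rises were in genes with no known part in RA metabolism. Prss35, a secreted serine protease-like protein that stands in the protease list, was read at 35.1, 11.9 and 16.5 without RA and at 547, 450 and 496 with it (24.7-fold, log2 change 4.63 ± 0.29 SE, limma adjusted p = 1.27e-06). Ddx25, an RNA helicase known from male germ cells, was read at 3.38, 3.38 and 6.50 against 107, 95.4 and 110 (log2 change 4.33 ± 0.28 SE). Both genes were read low without RA, with no overlap between the groups, and higher at 72 h than at 12 h, Prss35 at 1308 and 1183 and Ddx25 at 521 and 427. Inmt, an enzyme that methylates indole amines, was read at 1 to 2.5 without and at 34.0 to 63.6 with RA (4.08 ± 0.39 SE on the log2 scale), and at 40.4 and 50.2 after 72 h. In 16 of the 138 genes called higher the untreated mean was below 10, as in Ddx25 and Inmt, and their fold changes depend on the added 1.

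The remaining genes with the largest rises had various roles. Gdpd5, a phosphodiesterase of glycerophosphocholine, was read at 43.2 to 72.4 without and 451 to 483 with RA (7.96-fold, log2 change 2.99 ± 0.17 SE). Npr1, a receptor of natriuretic peptides that makes cyclic GMP, was read at 11 to 11.4 and at 79.0 to 87.4 (6.93-fold), and at 57.4 and 46.0 after 72 h. Pfkfb3, which sets the level of an activator of glycolysis, was read at 24.8 to 39.0 and at 156 to 162 (5.14-fold). Synpo, an actin-associated protein, was read at 83.8 to 118 and at 482 to 570 (5.33-fold), and Pitpnc1, a phosphatidylinositol transfer protein, at 106 to 182 and at 547 to 696 (4.68-fold). In each of these genes the 3 RA values lay above the 3 untreated values. Ttc9, 6330406I15Rik, 1700016C15Rik and AL669857.7 rose 5.56-, 6.56-, 4.82- and 9.26-fold. Of these, Ttc9, 1700016C15Rik and AL669857.7 were read low without RA, with means of 8.71, 8.79 and 2.04. With 10 added in place of 1, the log2 change of AL669857.7 was 1.62 in place of 3.21. AL669857.7 and AC164000.2, named next, are processed pseudogenes. Klre1 and AC164000.2 also stood among the 20 largest rises, at 4.75- and 4.56-fold, but their calls were lost in 3 of 13 and 6 of 14 alternatives, both without RA replicate 1 and without RA replicate 2, and that of AC164000.2 also without untreated replicate 1 or RA replicate 3.

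**Figure D3:**
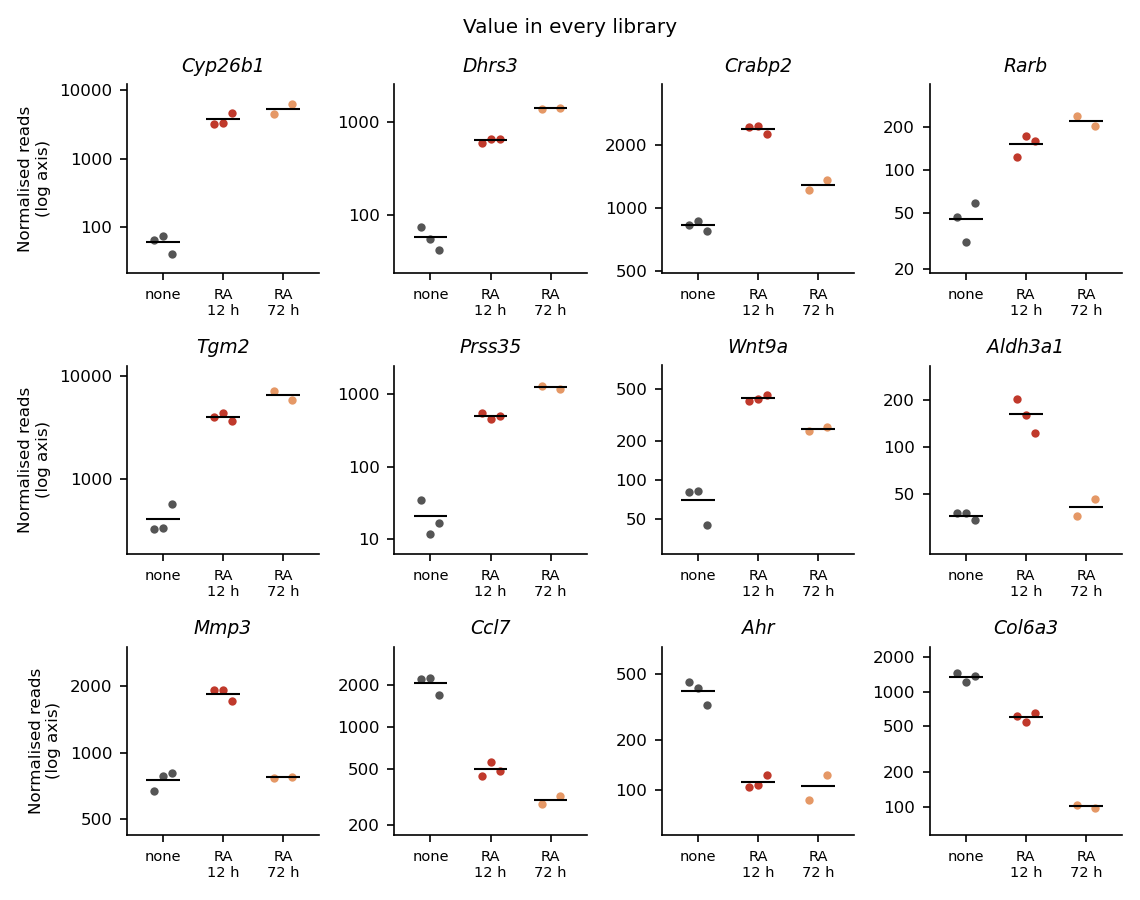
Normalised reads (log axis, a scale of its own in each panel) in every library for 12 genes; grey, untreated (none, 3 libraries), red, RA for 12 h (3 libraries), orange, RA for 72 h (2 libraries), and bars are group means. Cyp26b1 lay between 40.4 and 73.0 without RA and between 3252 and 4620 at 12 h, and Aldh3a1 was back at 36.5 and 46.6 after 72 h.

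Genes of the extracellular matrix were called in both directions. Of 53 matrix glycoproteins, elastic fibre and crosslinking genes, 6 were called higher and 1 lower (13.2%, against 1.41% of all genes, list median -0.01). Fbln7, a fibulin of cell adhesion, was read at 37.2, 26.9 and 25.8 without RA and at 187, 192 and 160 with it (5.89-fold, log2 change 2.56 ± 0.19 SE), and was read at 556 and 613 after 72 h. Loxl2, a lysyl oxidase that crosslinks collagen, rose 4.29-fold, from between 56.8 and 63.6 to between 247 and 277. The guidance factors Ntn1 and Ntn4 rose 3.50- and 2.32-fold, Tinagl, whose promoter window holds the DR2 printed above, rose 3.34-fold, from between 65.1 and 76.9 to between 201 and 255, and Efemp1 rose 2.11-fold. Fbn2, a fibrillin of elastic microfibrils, fell from between 273 and 352 to between 120 and 147 (log2 change -1.15 ± 0.14 SE).

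Of 35 collagens, Col8a1 was called higher and Col6a3 lower (5.71%, against 1.41% of all genes, list median 0.06). Col8a1, a short-chain collagen of vessel walls, was read at 622, 547 and 564 without RA and at 2151, 1717 and 2419 with it (3.59-fold, log2 change 1.84 ± 0.13 SE). Col6a3, a chain of the beaded filaments of collagen VI, was read at 1438, 1218 and 1381 without RA and at 617, 540 and 656 with it (log2 change -1.15 ± 0.11 SE, limma adjusted p = 3.61e-05). The ranges did not overlap in either gene, and Col6a3 was read lower still after 72 h, at 104 and 97.2. The fibrillar collagens Col1a2 and Col5a2 had log2 changes of 0.06 ± 0.12 and -0.18 ± 0.15 SE and were not called.

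Proteases and their inhibitors gave 4 genes called higher and 2 lower of 52 tested (11.5%, against 1.41% of all genes, list median -0.04). Besides Prss35 these were Mmp3, a stromelysin that cleaves matrix proteins, read at 668, 784 and 805 without RA and at 1918, 1920 and 1716 with it (2.46-fold, log2 change 1.30 ± 0.11 SE), and its neighbour Mmp10, read at 27.8 to 65.1 and 111 to 129. At 72 h Mmp3 was read at 768 and 774, within the untreated range, and Mmp10 at 16.5 and 26.9, below it. Thbd, a thrombin receptor of the vessel wall, rose 2.30-fold at 12 h and was read at 1233 and 1170 at 72 h, above its 12 h values of 538 to 610. The calls for the inhibitor Slpi (log2 change -1.06 ± 0.18 SE) and the protease Adam8 (-1.43 ± 0.36 SE) were lost in 4 of 14 and 8 of 13 alternatives, both without RA replicate 1, and that of Adam8 also without untreated replicates 1 or 2 or RA replicate 2. That of Mmp10 was lost in 2 alternatives.

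Of 40 chemokines, interleukins and related receptors tested, 5 were called lower and 3 higher, and the list median was -0.19. Over all genes 0.323% were called lower and 1.09% higher. The 21 lists together held 17 genes called lower among their 745 distinct tested genes. Like the other lists, this one was chosen with earlier results known, so these counts are a description only. Ccl7, which attracts monocytes, was read at 2187, 2243 and 1686 without RA and at 451, 567 and 484 with it (log2 change -2.02 ± 0.13 SE, limma adjusted p = 1.36e-06). Ccl2, its neighbour in the genome with the same kind of target cell, was read at 1986, 1696 and 2063 and at 511, 776 and 573 (-1.64 ± 0.15 SE). Both ranges were apart, and both genes were read lower at 72 h than at 12 h, Ccl7 at 284 and 326 and Ccl2 at 305 and 284. Cxcl1, a neutrophil attractant, fell from between 926 and 1838 to between 334 and 488 (-1.69 ± 0.21 SE). Tnfrsf11b, osteoprotegerin, the decoy receptor that blocks osteoclast formation, was read at 8145, 7900 and 6852 without RA and at 2130, 1614 and 2345 with it (-1.92 ± 0.14 SE, limma adjusted p = 2.38e-06). The fifth, Ccl5, had a log2 change of -1.02 ± 0.24 SE, and its call was lost in 9 of 14 alternatives, including those without either of untreated replicates 1 and 2 and without either of RA replicates 1 and 2.

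The 3 genes of this list that were called higher act against inflammatory signals or receive them. By sign alone, 12 of the 40 changes were positive and 28 negative. Tnfaip3, a ubiquitin-editing inhibitor of NF-kappaB, was read at 200, 161 and 214 without RA and at 748, 726 and 666 with it (3.73-fold, log2 change 1.90 ± 0.13 SE). Il1rn, the antagonist of the interleukin-1 receptor, rose 2.52-fold and was read at 903 and 855 after 72 h, above its 12 h values of 291 to 314. Tnfrsf1b, a receptor of tumour necrosis factor, rose 2.38-fold. None of the 28 interferon response genes tested was called. A list of this size can hold none at the 1.41% called over all genes. By limma none of these genes had an adjusted p below 0.05, and 5 had an unadjusted p below 0.05, 4 of them lower. Their median was -0.20, with 22 changes negative and 6 positive, while over all genes 6682 were negative and 5994 positive.

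**Figure D4:**
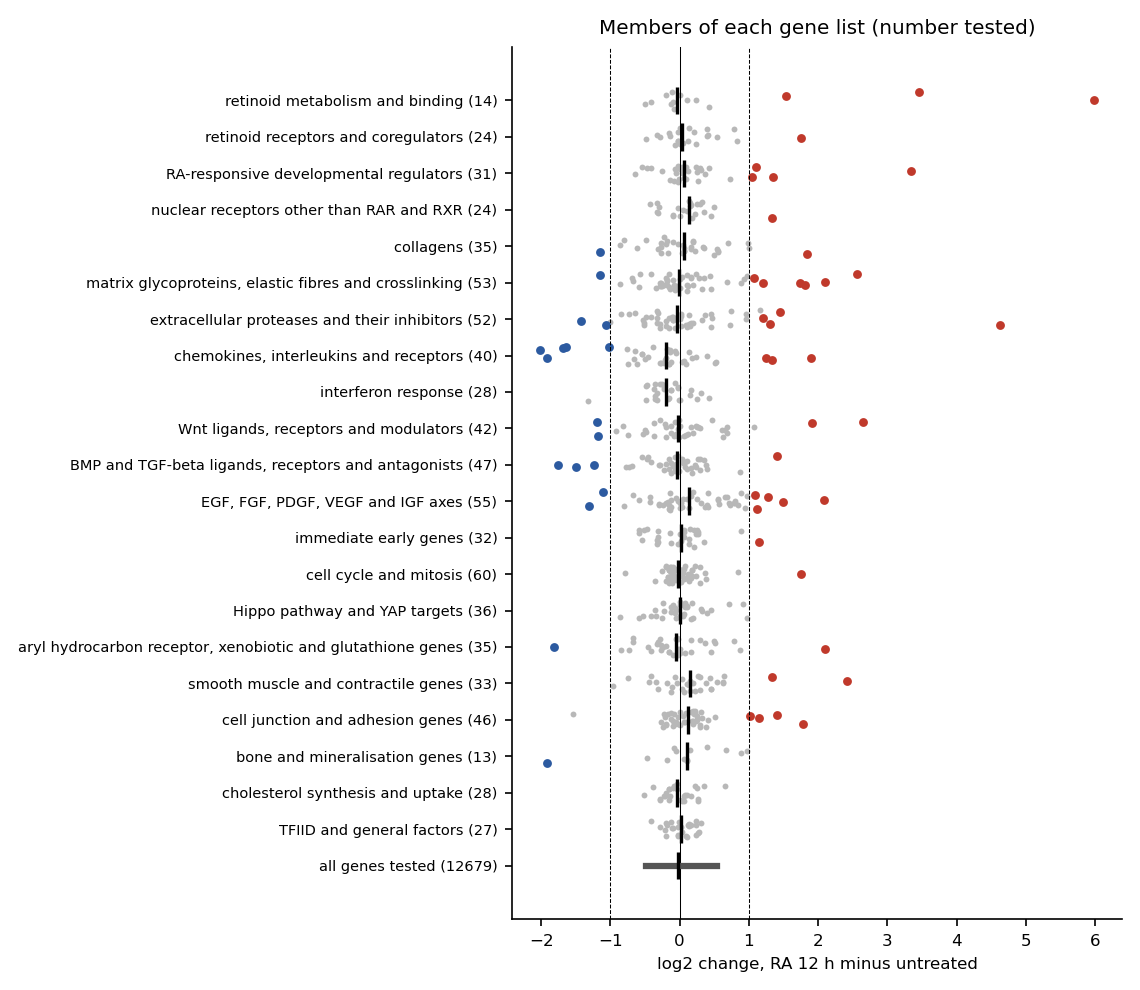
Log2 change of RA 12 h minus untreated (x axis) for every tested member of the 21 gene lists, 1 point per gene (red, called higher; blue, called lower; grey, not called), with the list median as a black tick. The bottom bar spans the 5th to the 95th percentile of all 12679 genes, from -0.49 to 0.55, and the dashed lines mark 2-fold; the list of chemokines, interleukins and receptors holds 5 blue points and a median of -0.19.

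Members of the Wnt pathway were called in both directions, 2 higher and 2 lower of 42 (9.52%, against 1.41% of all genes, list median -0.02). Wnt9a, a secreted Wnt ligand, was read at 81.5, 82.0 and 45.2 without RA and at 403, 422 and 453 with it (6.26-fold, log2 change 2.65 ± 0.20 SE, limma adjusted p = 4.23e-06), and at 237 and 258 after 72 h. Lgr6, a receptor of R-spondins, rose 3.75-fold, from between 12.2 and 18.5 to between 56.0 and 78.8. Rspo2, an R-spondin that strengthens Wnt signals, fell from between 431 and 455 to between 187 and 214 (log2 change -1.18 ± 0.12 SE), and Notum, an enzyme that inactivates Wnt proteins, from between 50.1 and 63.1 to between 22.1 and 25.9 (-1.19 ± 0.21 SE).

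In the BMP and TGF-beta list of 47 genes, 3 were called lower and 1 higher (8.51%, against 1.41% of all genes, median -0.04). Bmp4, a ligand of this family, was read at 2215, 2217 and 2051 without RA and at 881, 820 and 1064 with it, without overlap (log2 change -1.24 ± 0.11 SE, limma adjusted p = 2.14e-05). Of the other genes called lower, 5430433G21Rik (Ism1), a secreted protein with a thrombospondin domain, fell from between 319 and 434 to between 97.4 and 122. Id2, a transcription inhibitor that BMP signals induce, rose from between 2917 and 4168 to between 8145 and 9902 (2.65-fold).

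The growth factor list of 55 genes held 5 called higher and 2 lower (12.7%, against 1.41% of all genes), with a median of 0.14. Pdgfra, a receptor of platelet-derived growth factor that is also one of the fibroblast markers, rose from between 201 and 216 to between 543 and 644 (2.80-fold), and its ligands Pdgfb and Pdgfc rose 2.13- and 2.18-fold. Gdnf, a neurotrophic factor, rose 2.43-fold, from between 175 and 196 to between 446 and 474. Figf, vascular endothelial growth factor D, was read at 405, 396 and 408 without RA and at 158, 160 and 168 with it (log2 change -1.31 ± 0.12 SE), and Dusp6, a phosphatase of ERK, fell from between 127 and 143 to between 56.6 and 68.5 (-1.11 ± 0.16 SE). The call of Pdgfb was lost in 1 alternative, without untreated replicate 3, that of Pdgfc in 3, without untreated replicate 1, without the filter and with a term for the within-group axis, and that of Fgf18 (log2 change 2.09 ± 0.51 SE) in 6 of 13 alternatives, among them those without untreated replicate 1 and without each RA replicate.

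The aryl hydrocarbon receptor and an enzyme of its known target set moved in opposite directions. Ahr, a ligand-activated factor of the response to foreign compounds, was read at 447, 408 and 325 without RA and at 104, 107 and 122 with it (log2 change -1.81 ± 0.15 SE, limma adjusted p = 7.15e-06). Aldh3a1, an aldehyde dehydrogenase, was read at 37.9, 37.9 and 34.0 and at 204, 161 and 124 (4.28-fold, log2 change 2.10 ± 0.20 SE). Neither pair of ranges overlapped. After 72 h Ahr was still low, at 86.8 and 123, whereas Aldh3a1 was read at 36.5 and 46.6. They were the only called genes of 35 in the list (5.71%, against 1.41% of all genes, median -0.05). Cyp1b1, another known target of the receptor, had a log2 change of -0.31 ± 0.13 SE and was not called.

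Of 60 cell cycle genes Cdkn1a, the p21 inhibitor of cyclin-dependent kinases, was the only one called (1.67%, near the 1.41% of all genes). It was read at 40.5, 42.1 and 24.6 without RA and at 117, 109 and 137 with it (3.40-fold, log2 change 1.76 ± 0.22 SE). The list median was -0.02, and the cyclin-dependent kinases Cdc2a (Cdk1) and Cdk4 had log2 changes of -0.01 ± 0.16 and -0.05 ± 0.11 SE. Of 32 immediate early genes Dusp1, a phosphatase of MAP kinases, alone was called, higher at 2.22-fold (3.12% of the list, list median 0.03). Among 33 contractile genes Tpm1, a tropomyosin of actin filaments, and Synpo were called higher (6.06%, median 0.15). Tpm1 rose from between 18923 and 22547 to between 45846 and 55334 (2.52-fold). This is near the top of the table, where the common distribution leaves few values to take. Of 46 junction and adhesion genes 4 were called higher and none lower (8.7%, against 1.41% of all genes, median 0.13). Plekha7 of the adherens junction rose 3.44-fold and the connexin Gjb2 2.64-fold. The calls of Itga4 and F11r were lost in 8 of 13 and 6 of 14 alternatives. Both were lost without untreated replicate 1 and without either of RA replicates 2 and 3. That of Itga4 was also lost without untreated replicate 2 or RA replicate 1, and that of F11r without untreated replicate 3.

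No gene was called among 36 Hippo pathway genes and YAP targets (median 0.01), 28 cholesterol genes (median -0.04) and 27 TFIID and general factors (median 0.02). At an adjusted p below 0.05 without the fold minimum, limma gave 3 higher and 2 lower in the first of these, 1 higher in the second and none in the third, and at an unadjusted p below 0.05 it gave 13, 5 and 3 genes. With 1.41% of all genes called, lists of this size can hold no called gene, so its absence is not a result about these pathways. The YAP targets Ctgf and Cyr61 had log2 changes of 0.71 ± 0.14 (limma adjusted p = 0.00808) and 0.45 ± 0.12 SE. Axl, also among the most highly read genes of the Hippo and YAP list, had -0.34 ± 0.12 SE. Over that list 19 changes were positive and 17 negative. Taf4b, the paralogue of TAF4, had a log2 change of 0.14 ± 0.22 SE. Of 13 bone genes, Tnfrsf11b was the only one called (7.69%, median 0.11). Spp1, osteopontin, was read at 4814 to 6707 without and 8647 to 12091 with RA, just under the fold minimum (1.96-fold).

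Other large falls were in genes outside the lists. The gene with the largest fall of those called, 1190002H23Rik, was read at 373, 363 and 425 without RA and at 93.2, 77.8 and 95.1 with it (log2 change -2.11 ± 0.14 SE, limma adjusted p = 1.36e-06), and at 33.2 and 41.1 after 72 h. Penk1, the precursor of enkephalins, was read at 601, 606 and 658 and at 181, 210 and 171 (-1.73 ± 0.12 SE), and at 24.8 and 30.8 after 72 h. AC122038.3 (Igsf10), Hod (Hopx), Has2, the hyaluronan synthase, and Pcp4l1 fell by 1.73, 1.68, 1.65 and 1.47 on the log2 scale. The falls of Gper, a membrane estrogen receptor (-1.96 ± 0.40 SE), and Supt4h1 (-1.49 ± 0.34 SE) were in genes read at 35.9 or less, and their calls were lost in 4 and 7 of 13 alternatives, both without either of untreated replicates 1 and 2 and without RA replicate 1, that of Supt4h1 also without RA replicate 2. In all of these genes the 3 RA values lay below the 3 untreated ones.

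The 72 h libraries share the untreated libraries with this comparison, so their values are given only beside those at 12 h, without a test. The genes were called on those same untreated and 12 h values, so the counts below follow in part from that choice. They have no share over all genes beside them and do not measure how long the response lasts. Of the 138 genes called higher, 127 had both 72 h values above all untreated values, 45 had both above all 12 h values, as Dhrs3, Tgm2, Fbln7 and Il1rn did, and 44 had both below all 12 h values, as Crabp2, Wnt9a, Npr1 and Aldh3a1 did. Of the 41 called lower, 39 had both 72 h values below all untreated values, 17 had both below all 12 h values, as Col6a3 and Penk1 did, and 9 had both above them. Ptx3, a pentraxin of innate immunity named here after its values were seen, was read at 3976 to 5117 without RA, at 1507 to 1860 after 12 h and at 6736 and 6173 after 72 h, so that it was lowest at 12 h and highest at 72 h.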

How the data were processed

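Normalised reads per gene, described as mRNA tags cut at DpnII sites in the labels and as fragmented mRNA sequenced with the Illumina instrument in the methods of the study, were analysed in 3 untreated libraries and 3 treated with RA for 12 h. The scores in the table, which the authors deposited as normalised reads with decimal commas, come from reads mapped to mm9 and, per the methods, were normalised with the DESeq package. All 8 columns were found to hold the same sorted values, and 100% of values below 1000 are multiples of 0.125, so they are other than counts and no count test was run. Of the lines in the table, 1 names no gene and was not used. The 2 libraries of 72 h enter only as values and in 1 alternative.

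Groups were taken from the treatment and time labels. The titles carry a clone name that resembles that of the line with TAF4, while the genotype label reads TAF4-/- throughout, and the label was followed. Values were tested as log2(value + 1) for genes with a mean of at least 10. The test was that of limma 3.58.1 in R 4.3.3 (moderated, with a variance trend, two-sided, Benjamini-Hochberg over 12679 genes). It was first run on simulated data with independent noise, which lack the axis shared within groups. That run does not measure the error rate of the calls made here. The study's own cutoff, unadjusted p at most 0.05 with 2-fold, was an alternative. Alternatives were another pseudocount (10), no filter or a mean of at least 50, no trend, a robust variance prior, other fold minimums, a replicate block, a term for the within-group axis, all 8 libraries, and leaving out each library. Named genes were the 20 largest rises and 15 largest falls among called genes without overlap and with a mean of at least 20 in the higher group, every called gene of the 21 lists, all tested members of both retinoid lists, and the most highly read members of the lists; others are marked. Members and lists were chosen with earlier results of these data known, so the shares called in the lists are descriptions and were not tested. Gene positions are those of GENCODE vM1 on mm9, found for 21465 identifiers (96.7%). Promoter windows and their build are RefSeq's; R stands for A or G and K for G or T in the hexamer. The searches on mm9 windows were added after the data were seen. Scripts used Python 3.11.15, pandas 2.3.3 and matplotlib 3.10.9. A few members of the lists are counted but not reported here by name.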

Additional observations from a re-analysis of the deposited data

How the results depend on the processing

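The 179 calls became 177 with all 8 libraries in the fit, 160 without the variance trend, 179 with a robust variance prior, 137 with a mean of at least 50 and 188 with a term for the within-group axis. Without the fold minimum 500 genes were called (329 higher, 171 lower), with a minimum of 3-fold 57 (45 higher, 12 lower), and with the study's unadjusted p 222 (164 higher, 58 lower). A pseudocount of 10 gave 149 (121 higher, 28 lower), a mean of at least 50 gave 110 higher and 27 lower, and no filter gave 126 of 22200 genes (101 higher, 25 lower), 116 of them among the 179. Leaving out 1 library gave 144 to 330 calls, 112 to 241 higher and 29 to 89 lower; the highest was without untreated replicate 3, and without it the counts were 144 to 172. The cause was not tested. With the replicate number as a replicate block 171 genes were called (134 higher, 37 lower), 169 of them shared. The labels name no batch shared by number. Deviations of same-numbered libraries from their group means had r = -0.108, -0.189 and -0.475, and no sample correlated best with its own number. With 3 libraries per group these deviations depend on each other, so the values cannot decide on a pairing by number.

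Of the 77 called genes that are named, 56 kept their call under every alternative run, 21 lost it under at least 1 and none reversed. There were 14 alternatives per gene, but 13 for 17 genes with a mean below 50, of which 7 are among the 56. Without the filter 18 calls were lost, among them those of Cxcl1, Gjb2, Has2 and Pcp4l1, and with a pseudocount of 10 there were 9, among them those of Efemp1 and Notum. With the hexamer AGGTCA alone the share of windows of genes called higher with a DR2 fell to 0 and that with a DR5 to 1.03%. Depth cannot be read from these values; the median SE of the log2 change was 0.31 for genes with a mean of 10 to 50 and 0.11 for those at 1000 or more.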
